A study of Mus musculus with 144 samples.

Results

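Il2rb, Il12rb2, Il18r1, Il18rap, Tbx21, Eomes and Ifng are 7 genes through which natural killer cells and cytotoxic T cells receive cytokine signals, fix their identity and answer with interferon gamma. They were taken by name, with earlier results of these data known. Each was read from its only probe set on the array that is annotated to that gene alone. Thus 7 of 22180 genes tested are described here. Levels are log2 signals after robust multi-array averaging (RMA), and they are compared between mice for the same gene but not between genes.

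Whole blood was taken from male C57BL/J6 mice, which were 7 weeks old when obtained, 1, 6 or 12 months after a single pharyngeal aspiration, in which a suspension is placed at the base of the tongue and breathed into the lung. All mice received the dispersion medium (DM), either alone as the negative control or with a fibre in it. The fibres were multi-walled carbon nanotubes (MWCNT, Mitsui MWNT-7) at doses of 1, 10, 40 or 80 µg, and crocidolite asbestos at 120 µg as the positive control. The mice fell into 18 dose-by-month groups of 6 to 9. Of the DM mice, 7 were bled at 1 month and 8 at each later month. The same mice were not followed over time, and because mice were older at each later month, age and time since aspiration cannot be told apart.

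Il2rb is the signalling chain that the receptors for interleukin 2 and interleukin 15 share, and interleukin 15 keeps natural killer cells alive. Il12rb2 is the signalling chain of the interleukin 12 receptor and acts through Stat4. Il18r1 binds interleukin 18 and Il18rap is its accessory chain, and interleukins 12 and 18 together are known for driving interferon gamma release. Tbx21 (T-bet) and Eomes are T-box transcription factors needed for natural killer cell development and for cytotoxic T cells, and Ifng encodes interferon gamma.

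By the RefSeq annotation of GRCm38.p6, Il2rb lies on chromosome 15 (78479256 to 78511621), Il12rb2 on chromosome 6 (67285986 to 67376293), Tbx21 on chromosome 11 (97098007 to 97115331), Eomes on chromosome 9 (118478186 to 118486132) and Ifng on chromosome 10 (118441046 to 118445894). Il18r1 (40465552 to 40500854) and Il18rap (40515362 to 40551707) are neighbours on chromosome 1. Promoter windows from RefSeq, which run from 250 bases before to 50 bases after a start, were matched for 6 of the 7 genes. They are shown for Il12rb2, Il18r1 and Il18rap, which were lower at 6 months than at 1 month in the DM mice. Both strands were searched for TTCNNNGAA and for the same arms with 1 more N between them. These are palindromes of the kind that STAT proteins are known to bind, and which of these proteins prefers which spacing was not considered. Capitals mark the matches.
Il12rb2, chr6:67376139-67376438, minus strand: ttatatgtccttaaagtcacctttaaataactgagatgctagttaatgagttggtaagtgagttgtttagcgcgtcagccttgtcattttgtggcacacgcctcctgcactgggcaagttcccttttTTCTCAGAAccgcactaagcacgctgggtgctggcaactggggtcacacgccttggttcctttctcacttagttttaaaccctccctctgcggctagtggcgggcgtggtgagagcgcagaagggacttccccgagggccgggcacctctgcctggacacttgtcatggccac
Il18r1, chr1:40465302-40465601, plus strand, the first of its 3 starts: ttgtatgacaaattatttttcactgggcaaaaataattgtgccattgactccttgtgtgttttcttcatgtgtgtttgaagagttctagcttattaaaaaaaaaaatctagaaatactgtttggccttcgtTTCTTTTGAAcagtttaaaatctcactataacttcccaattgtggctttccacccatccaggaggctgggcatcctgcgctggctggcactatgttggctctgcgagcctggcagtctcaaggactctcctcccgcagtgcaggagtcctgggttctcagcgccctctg
Il18rap, chr1:40515112-40515411, plus strand: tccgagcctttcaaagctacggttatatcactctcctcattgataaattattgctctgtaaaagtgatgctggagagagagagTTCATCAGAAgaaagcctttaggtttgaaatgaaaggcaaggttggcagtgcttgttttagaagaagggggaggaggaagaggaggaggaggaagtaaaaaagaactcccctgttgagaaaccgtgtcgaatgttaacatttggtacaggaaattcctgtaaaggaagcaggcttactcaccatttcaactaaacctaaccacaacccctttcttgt
The Il12rb2 window held the shorter motif. The windows shown of Il18r1 and Il18rap held the longer one, in Il18rap 167 bases before the start. Among all 32851 promoter windows, 8.30% held the shorter motif and 6.95% the longer. Of the 8 windows matched, some of which overlap, 3 held the shorter and 3 others the longer, and of the latter the first and second Il18r1 windows overlap and hold the same site. The third Il18r1 window and the Ifng window held the shorter motif. The windows of Tbx21 and Eomes, genes that were also lower at 6 months in the DM mice, held neither motif. None of the 8 windows held TCACACCT, a T-box half-site, which 1.28% of all windows held. These are matches of letters and not measured binding.

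The members were measured at different distances from the array's background, which was set at the 90th percentile of the mean levels of 1108 olfactory receptor probe sets, 1.52 on the log2 scale. Il2rb, Il12rb2, Il18r1 and Il18rap were above it on all arrays, Eomes and Tbx21 on nearly all. Ifng was above it on 25 arrays, so most of its values lie within the background range and no direction is read from them.

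The members differed most between months. In whole blood, fewer cells of a type and less RNA per cell cannot be told apart. Over all 18 groups the F test of limma passed for Il2rb (adjusted p = 9.81e-07), Il12rb2 (adjusted p = 3.06e-05), Il18r1 (adjusted p = 0.0113) and Tbx21 (adjusted p = 0.0983), that is for 4 of the 7 genes, against 12.1% of the 23521 probe sets tested. It did not pass for Il18rap (adjusted p = 0.142), Ifng (adjusted p = 0.419) or Eomes (adjusted p = 0.448). Mice of the same group also differed widely. The residual SD between mice was 0.80 for Il2rb and 0.79 for Il18rap, both above the 98th percentile of all probe sets, and 0.47 to 0.52 for Il18r1, Eomes, Tbx21 and Il12rb2.

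Il2rb was highest at 1 month in every exposure. The DM mean at 1 month was 5.96 ± 0.86 (SD, n = 7). With 1 µg MWCNT it was 5.30 ± 0.71 (n = 8), with 10 µg 4.74 ± 0.58 (n = 6), with 40 µg 4.81 ± 1.06 (n = 6), with 80 µg 5.50 ± 1.18 (n = 8) and with crocidolite 5.14 ± 0.98 (n = 7). At 6 months the means ran from 3.92 ± 0.31 (n = 8) at 80 µg to 4.73 ± 0.89 (n = 9) with crocidolite, and at 12 months from 3.50 ± 0.62 (n = 8) at 80 µg to 4.10 ± 0.52 (n = 8) in DM. Thus the lowest mean of 1 month stood only just above the highest mean of 6 months.

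Il12rb2 was also highest at 1 month in every exposure, though the exposures stood in another order. The DM mean at 1 month was 3.76 ± 0.95 (SD, n = 7), with crocidolite at 3.11 ± 0.74 (n = 7) and 80 µg MWCNT at 3.05 ± 0.86 (n = 8) next, and 1, 40 and 10 µg at 2.75 ± 0.65 (n = 8), 2.74 ± 0.66 (n = 6) and 2.57 ± 0.19 (n = 6). At 6 months the means ran from 2.25 ± 0.28 (n = 8) at 1 µg to 2.53 ± 0.47 (n = 8) at 10 µg, and at 12 months from 2.11 ± 0.27 (n = 8) at 10 µg to 2.54 ± 0.53 (n = 8) at 80 µg. The 6 groups of 1 month had the 6 highest means. Crocidolite, the neighbour below DM in this order, differed from it by -0.65 ± 0.27 (SE, adjusted p = 0.989).

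DM at 1 month also had the highest mean of all 18 groups for Il18r1 (4.10 ± 0.67), Il18rap (4.28 ± 0.88), Tbx21 (3.06 ± 0.75) and Eomes (2.83 ± 0.61; SD, n = 7 each). The next group was 80 µg MWCNT at 1 month for Il18r1 (3.92 ± 0.33), Il18rap (4.10 ± 0.92) and Tbx21 (2.87 ± 0.41; n = 8 each), and 80 µg at 6 months for Eomes (2.77 ± 0.79, n = 8). The lowest means were 3.12 ± 0.40 (80 µg, 12 months, n = 8) for Il18r1, 2.95 ± 0.68 (DM, 6 months, n = 8) for Il18rap, 2.01 ± 0.28 (crocidolite, 12 months, n = 8) for Tbx21 and 1.96 ± 0.40 (DM, 6 months, n = 8) for Eomes. For Eomes, DM thus held both ends of the order. The Ifng means lay between 1.03 ± 0.24 (DM, 6 months, n = 8) and 1.64 ± 0.52 (40 µg, 1 month, n = 6).

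**Figure D1:**
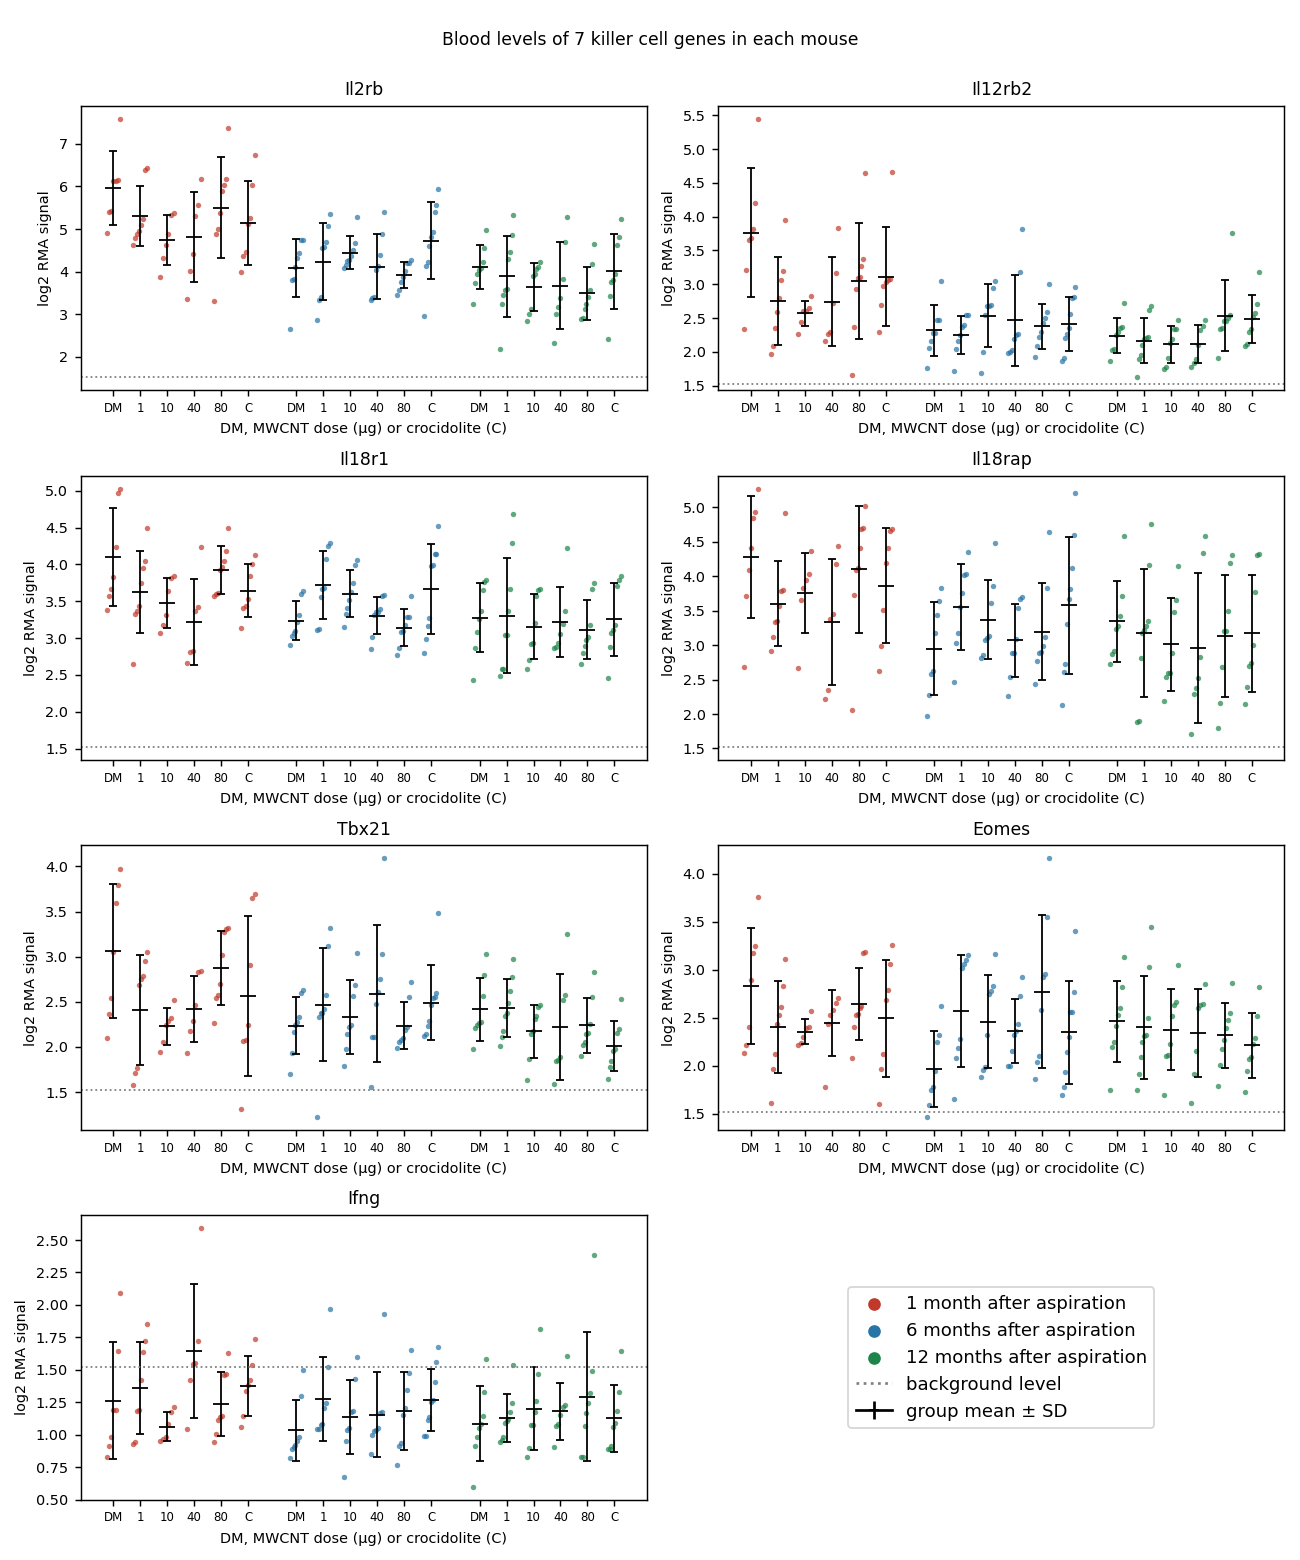
Log2 RMA signal of the 7 genes in each mouse (points), by month (colours) and exposure (horizontal axis), with group means ± SD in black and the background level of 1.52 as a dotted line. The DM mice of 1 month had the highest mean of 6 genes, and most Ifng values lie below the dotted line.

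The comparison of DM mice between months addresses what changed without any fibre. In DM mice, 6 of the 7 genes were lower at 6 months than at 1 month, against 3.46% of all probe sets called lower (814 of 23521, limma, adjusted p under 0.10). Each of the 6 also passed 1.5-fold. The median change of the 7 genes was -0.87, against 0.03 over all probe sets. Because the 7 genes were chosen with earlier results of these data known, these shares describe the set and do not test it. At 12 months, 3 were lower than at 1 month, against 1.13% of all probe sets. None differed between 12 and 6 months, where 0.068% of all probe sets were called. In that last comparison 1 of the 7, Eomes, had an unadjusted p under 0.05 (0.50 ± 0.24 higher at 12 months).

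Of the receptor chains, Il2rb fell furthest. The lowest, median and highest DM mouse had 4.91, 6.13 and 7.59 at 1 month, 2.65, 4.21 and 4.75 at 6 months, and 3.25, 4.06 and 4.97 at 12 months. All 7 mice of 1 month lay above all 8 of 6 months, and 6 of 7 lay above all 8 of 12 months. The change was -1.88 ± 0.41 (SE), or 3.69-fold lower, at 6 months (adjusted p = 0.0128) and -1.86 ± 0.41 at 12 months (adjusted p = 0.0117).

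Il12rb2 had 2.34, 3.69 and 5.45 in the lowest, median and highest DM mouse at 1 month, 1.77, 2.28 and 3.04 at 6 months, and 1.86, 2.28 and 2.72 at 12 months. In both later months 6 of the 7 mice of 1 month lay above every later DM mouse, and the seventh lay within their range. The change was -1.45 ± 0.27 (SE), 2.73-fold lower, at 6 months (adjusted p = 0.00269), where it had the second smallest p of all probe sets. At 12 months it was -1.52 ± 0.27 (adjusted p = 0.000317).

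The interleukin 18 receptor chains overlapped more. Il18r1 had 3.38, 3.83 and 5.03 in the lowest, median and highest DM mouse at 1 month, 2.91, 3.16 and 3.63 at 6 months, and 2.44, 3.31 and 3.79 at 12 months. At 1 month 5 of 7 mice lay above all those of 6 months. Il18r1 was lower by -0.87 ± 0.24 at 6 months (SE, adjusted p = 0.0505) and by -0.82 ± 0.24 at 12 months (adjusted p = 0.0792). Il18rap had 2.69, 4.41 and 5.28 at 1 month, 1.97, 2.91 and 3.84 at 6 months, and 2.73, 3.25 and 4.58 at 12 months. It was lower by -1.34 ± 0.40 at 6 months (adjusted p = 0.0621), and its change of -0.94 ± 0.40 at 12 months did not pass (adjusted p = 0.275).

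Both T-box factors were called at 6 months alone. Tbx21 had 2.1, 3.06 and 3.97 in the lowest, median and highest DM mouse at 1 month and 1.70, 2.26 and 2.63 at 6 months, a change of -0.83 ± 0.25 (SE, adjusted p = 0.0645). Eomes had 2.14, 2.89 and 3.76 at 1 month and 1.46, 1.86 and 2.62 at 6 months, a change of -0.87 ± 0.25 (adjusted p = 0.0531). For both genes 4 of the 7 mice of 1 month lay above all 8 of 6 months. At 12 months the changes were -0.64 ± 0.25 for Tbx21 (adjusted p = 0.222) and -0.37 ± 0.25 for Eomes (adjusted p = 0.545). Ifng changed by -0.23 ± 0.16 (adjusted p = 0.524) and -0.18 ± 0.16 (adjusted p = 0.693), within its background range.

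These counts rested on few mice. The DM mouse of 1 month on array 98 had the highest Il2rb, Il12rb2 and Il18rap of all mice. Without it, 1 of the 7 genes was called lower at 6 months, with 22 probe sets called lower in all, and 1 at 12 months, with 9 in all. The gene called both times was Il12rb2 (-1.17 ± 0.26, adjusted p = 0.0671, and -1.24 ± 0.26, adjusted p = 0.0163), while Il2rb had -1.61 ± 0.42 (adjusted p = 0.127) and -1.59 ± 0.42 (adjusted p = 0.136). At 6 months 2 genes were called without array 89, 3 without array 3 and 4 without array 20 among the DM mice of 1 month. Likewise 3 were called without array 30, 66 or 81 among those of 6 months. At 12 months 2 were called without array 3 or 89 of 1 month or without any of 5 of the 8 mice of 12 months. Within array numbers 1 to 96, which hold 5 DM mice of 1 month and 7 of 6 months, the changes at 6 months were -1.76 ± 0.45 for Il2rb (adjusted p = 0.0836) and -1.25 ± 0.29 for Il12rb2 (adjusted p = 0.0634), and the other 5 genes did not pass.

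The exposed groups were compared between months in the same way, a comparison added after the values were seen. In the mean of the 5 exposed groups, 2 of the 7 genes were lower at 6 months than at 1 month, against 0.689% of all probe sets called lower. These were Il2rb (-0.81 ± 0.18, SE, adjusted p = 0.0129) and Il12rb2 (-0.44 ± 0.12, adjusted p = 0.0565). At 12 months against 1 month 5 were lower, against 17.3% of all probe sets. Il2rb changed by -1.35 ± 0.18 (adjusted p = 1.49e-08), Il18rap by -0.64 ± 0.18 (adjusted p = 0.00605), Il12rb2 by -0.56 ± 0.12 (adjusted p = 0.000226), Il18r1 by -0.37 ± 0.11 (adjusted p = 0.0103) and Tbx21 by -0.29 ± 0.11 (adjusted p = 0.0598). Eomes (-0.14 ± 0.11, adjusted p = 0.388) and Ifng (-0.15 ± 0.07, adjusted p = 0.139) did not pass. At 12 months against 6 months Il2rb (-0.55 ± 0.17, adjusted p = 0.0365) and Il18r1 (-0.28 ± 0.10, adjusted p = 0.0822) were lower, against 8.92% of all probe sets. Neither was called when the array spread described next was a covariate, or without the arrays of low correlation.

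The exposed arrays of 12 months had a larger array spread, 0.643 to 0.652 in group means against 0.519 to 0.592 in all other groups, the spread being the interquartile range of an array's deviations from the probe set medians. They held 9 of the 13 arrays that correlated least with the others. With the spread as a covariate, 2 genes were lower at 12 months against 1 month in exposed mice, Il2rb (-1.08 ± 0.19, adjusted p = 6.57e-05) and Il12rb2 (-0.63 ± 0.13, adjusted p = 0.000969), and the changes in DM mice between 6 months and 1 month remained called for the same 6 genes. After a second quantile normalization of the arrays only Il2rb and Il12rb2 of these 6 were called in DM mice, and 0.765% of all probe sets were called lower.

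Among single exposures, 80 µg MWCNT had calls. At 6 months against 1 month, Il2rb was lower there (-1.58 ± 0.39, SE, adjusted p = 0.095), against 0.0935% of all probe sets. At 12 months against 1 month, Il2rb (-2.0 ± 0.39, adjusted p = 0.000258), Il18r1 (-0.81 ± 0.23, adjusted p = 0.0132), Tbx21 (-0.63 ± 0.24, adjusted p = 0.0653) and Il18rap (-0.97 ± 0.39, adjusted p = 0.08) were lower, against 13.3% of all probe sets. These calls were made without the spread as a covariate. The 80 µg arrays of 12 months had a mean spread of 0.652, and 2 of the 8 had a low correlation. Il2rb at 80 µg ran from 3.30 over a median of 5.62 to 7.36 at 1 month. At 12 months it ran from 2.89 over 3.33 to 4.64. No gene of the 7 was called between months at 1, 10 or 40 µg or with crocidolite, where the Il2rb changes from 1 month to 12 months were -1.41 ± 0.38, -1.09 ± 0.42, -1.14 ± 0.44 and -1.13 ± 0.41 (adjusted p = 0.418, 0.131, 0.62 and 0.544). The smallest unadjusted p among these was 0.00032. Few probe sets of any kind were called there, for 6 against 1, 12 against 1 and 12 against 6 months 0.0085, 0.0255 and 0% at 1 µg, 0.00425% each time at 40 µg, and 0.0425 and 0.00425% with crocidolite for the first and second of these. The exceptions were 12 against 1 month at 10 µg, with 5.74% (0.0085 and 0.0128% for the other two), and 12 against 6 months with crocidolite, with 3.58%.

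The drop from 1 month to 6 months was nominally deeper in DM than in exposed mice, but the difference did not pass. From 1 month to 6 months the exposed-against-DM difference shifted by 1.01 ± 0.29 for Il12rb2 (SE, adjusted p = 0.758), 0.90 ± 0.27 for Eomes (adjusted p = 0.758) and 1.08 ± 0.44 for Il2rb (adjusted p = 0.768). No probe set was called in that test, while 6 of the 7 genes had an unadjusted p under 0.05, against 6.13% of all probe sets. All genes share the same DM mice, that of array 98 among them, so these 6 p-values are not independent. From 1 month to 12 months, 1 of the 7 genes had an unadjusted p under 0.05, against 4.85% of all probe sets. Again no probe set was called.

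**Figure D2:**
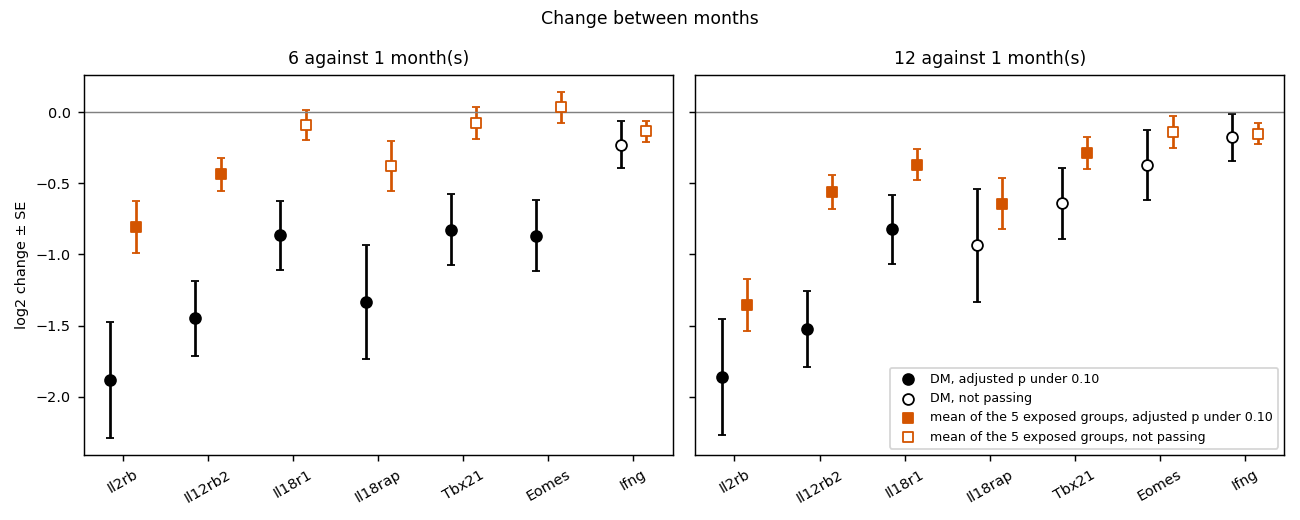
Log2 change ± SE of the 7 genes at 6 and 12 months against 1 month in DM mice (black circles) and in the mean of the 5 exposed groups (orange squares). Filled symbols passed at an adjusted p under 0.10. In DM mice 6 genes passed at 6 months and 3 at 12 months.

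Each exposed group was then compared with the DM group of its own month, which asks what the fibres did. Of the 7 genes, none was called in any of the 15 comparisons. In these, 0 to 2 probe sets were called at 1 and 6 months (0 to 0.0085%). At 12 months 0.0468% of all probe sets were called higher and 0.132% lower at 10 µg MWCNT, 0.0128% and 0.0298% at 40 µg, 0.234% and 0.986% at 80 µg, and 0.455% and 2.02% with crocidolite. In either direction these were 0.179, 0.0425, 1.22 and 2.48%. The 5 comparisons of a month share their DM mice, so that their values are not independent of each other.

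At 1 month Il12rb2 differed from DM by -1.01 ± 0.27 (SE) at 1 µg, -1.20 ± 0.29 at 10 µg, -1.03 ± 0.29 at 40 µg, -0.71 ± 0.27 at 80 µg and -0.65 ± 0.27 with crocidolite. The smallest adjusted p was 0.28. Every exposed group overlapped with DM, whose lowest mouse, on array 59, had 2.34, and the exposed mice ran from 1.65 to 4.66. At 10 µg, where mice ran from 2.27 to 2.83, the overlap rested on that DM mouse alone. The next lowest DM mouse had 3.20. Il2rb differed by -0.66 ± 0.41, -1.23 ± 0.44, -1.15 ± 0.44, -0.46 ± 0.41 and -0.83 ± 0.42 in the same order, and Tbx21 by -0.65 ± 0.25, -0.83 ± 0.27, -0.64 ± 0.27, -0.19 ± 0.25 and -0.50 ± 0.26. The 80 µg mice were nearer to DM than the 10 µg mice in these genes. At an unadjusted p under 0.05, 6 of the 7 genes passed at 40 µg (11.5% of all probe sets), 5 of them lower and 1, Ifng, higher (0.38, within its background range), 4 at 10 µg (3.69%), 2 at 1 µg (6.44%), 1 at 80 µg (1.87%) and 1 with crocidolite (3.87%).

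In the mean of the 5 exposed groups at 1 month, a comparison added after the values were seen, Il12rb2 was at -0.92 ± 0.21 against DM (SE, adjusted p = 0.174), while 0.0128% of all probe sets were called. Without the DM mouse on array 59, which had the lowest Il12rb2 of its group, it was called (-1.16 ± 0.22, adjusted p = 0.00635). Without the one on array 98 it was at -0.64 ± 0.22 (adjusted p = 1). The other 6 genes had adjusted p of 0.903 or more.

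At 6 months Eomes was at 0.81 ± 0.24 (SE) above DM at 80 µg (unadjusted p = 0.000927, adjusted p = 0.773). The 80 µg mice ran from 1.86 over a median of 2.75 to 4.16 and the DM mice from 1.46 over 1.86 to 2.62, so that they overlapped. Eomes differed by 0.60 ± 0.24, 0.49 ± 0.24 and 0.40 ± 0.24 at 1, 10 and 40 µg and by 0.38 ± 0.23 with crocidolite (adjusted p = 1 each). The DM mice of 6 months that all 5 values share had the lowest Eomes mean of the 18 groups. At 12 months no gene of the 7 had an unadjusted p under 0.05 in any exposure, and their changes ran from -0.61 ± 0.39 (Il2rb, 80 µg) to 0.30 ± 0.26 (Il12rb2, 80 µg).

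**Figure D3:**
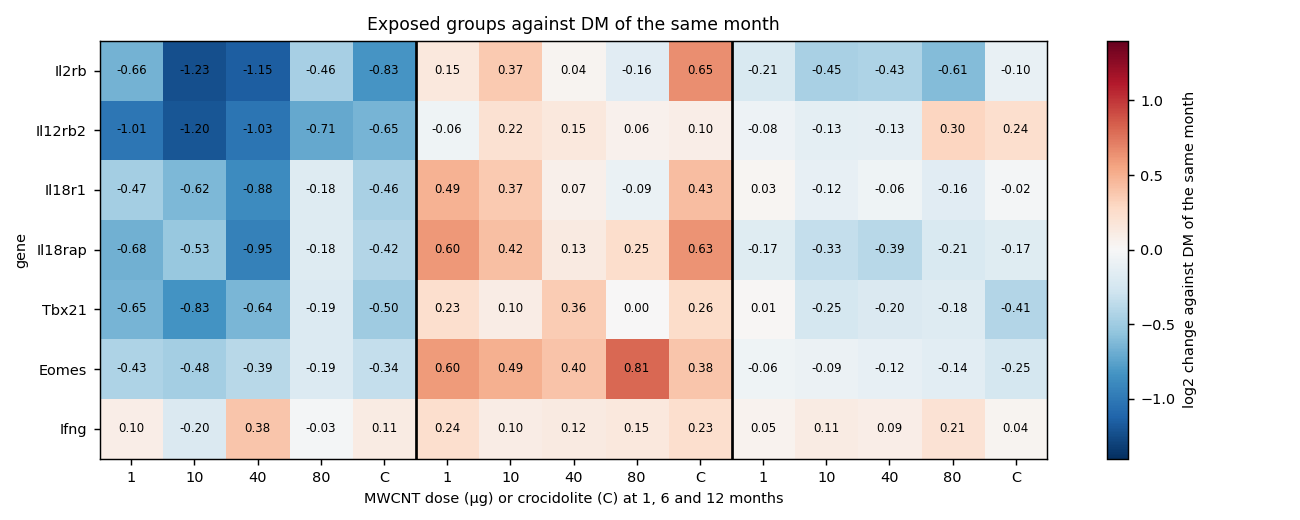
Log2 change of the 7 genes (rows) in each exposed group against DM of the same month (columns, MWCNT dose in µg or crocidolite as C, for 1, 6 and 12 months from left to right). Blue is lower and red higher. No cell passed at an adjusted p under 0.10, and the columns of a month share their DM mice.

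Dose trends over DM and the 4 MWCNT doses passed for none of the 7 genes. At 12 months 6.18% of all probe sets had a called trend, and the fitted change of Il2rb from DM to 80 µg on the scale of log2(dose + 1) was -0.52 ± 0.32 (SE, adjusted p = 0.374). At 1 month that of Il12rb2 was -0.51 ± 0.22 and at 6 months that of Eomes 0.46 ± 0.20 (adjusted p = 1 each), where no probe set was called. Crocidolite against 80 µg MWCNT, which differ in mass, gave no call for the 7 genes either, with 0.302% of all probe sets called at 12 months and none earlier. The smallest unadjusted p were those of Il18r1 and Il2rb at 6 months, which were at 0.52 ± 0.23 and 0.81 ± 0.38 with crocidolite against 80 µg (adjusted p = 0.997 each). The effects of 80 µg, of the trend and of crocidolite did not differ between months for any of the 7 genes (smallest adjusted p = 0.514, Il18r1 with crocidolite), where 0.0553% of all probe sets were called for crocidolite and none for the others.

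Genes of the same cells and pathways, in lists also chosen with earlier results of these data known, were followed between months in DM mice. Of 14 natural killer cell markers with a probe set of their own, 9 were lower at 6 months than at 1 month, with a median change of -1.27. They included Klrd1 (-1.66 ± 0.29, SE), Klrc1 (-2.22 ± 0.42) and Klrk1 (-1.36 ± 0.29), which encode lectin-like receptors, and Ncr1 (-1.83 ± 0.39), which encodes the activating receptor NKp46. Of 9 cytotoxic granule genes 7 were lower, among them Gzma (-1.67 ± 0.33), Gzmb (-1.56 ± 0.35) and Prf1 (-1.41 ± 0.31), which encode granzymes and perforin. Lower too were 5 of 12 T cell markers, 3 of 8 monocyte markers, 1 of 10 B cell markers, 1 of 10 neutrophil markers and none of 7 platelet markers.

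The mean of the natural killer cell markers ran from 3.56 to 4.71 in DM mice of 1 month and from 2.50 to 3.12 at 6 months, without overlap, and from 2.78 to 3.42 at 12 months. The T cell marker mean ran from 5.12 to 5.98 and from 4.44 to 5.15 at 1 and 6 months. The DM group means of monocyte, neutrophil and B cell markers fell too, from 6.43 to 5.60, 5.87 to 5.19 and 6.87 to 6.30. Those of platelet (9.48 and 9.84), erythroid (7.79 and 7.85) and basophil and mast cell markers (2.31 and 2.36) did not fall. The part of these markers in the members' changes was not tested.

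Of 24 ligands, partner chains and signalling genes, 3 were lower in DM mice at 6 months against 1 month. They were Il2ra (-0.97 ± 0.24, SE), the chain that raises the affinity for interleukin 2, Stat4 (-0.89 ± 0.27), which carries the interleukin 12 signal, and Traf6 (-0.86 ± 0.26), which acts downstream of the interleukin 18 receptor. Of 13 other transcription factors of killer lymphocytes 5 were lower, among them Id2 (-1.37 ± 0.35) and Bhlhe40 (-0.91 ± 0.25). Of 18 interferon gamma receptor and target genes 4 were lower, Irgm1 (-0.91 ± 0.24), Gbp4 (-1.25 ± 0.37), Irgm2 (-1.17 ± 0.36) and the receptor chain Ifngr1 (-0.82 ± 0.27). The relatives by sequence were not called in this comparison, with 0 of 14 other T-box genes and 0 of 7 other genes of the interleukin 1 receptor family. Only 6 of these 14 and 4 of these 7 were above background, which limits what their lack of calls can show. The background for all these lists is the 3.46% given above.

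These list counts also rested on the DM mouse on array 98. Without it, 5 natural killer cell markers (Ncr1, Klrd1, Klrk1, Klrc1 and Klre1) and 2 cytotoxic granule genes (Gzma and Prf1) were called lower, and no gene of the other lists, against 0.0935% of all probe sets. After the second quantile normalization 7 natural killer cell markers, 7 cytotoxic granule genes, 2 T cell markers and 1 monocyte marker were called lower, with 2 of the 24 ligands, partners and signalling genes (Il2ra and Stat4), 2 transcription factors and no interferon gamma target.

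In the exposed mean at 12 months against 1 month, 12 of 14 natural killer cell markers, 7 of 9 cytotoxic granule genes, 11 of 12 T cell markers, 6 of 10 B cell markers and 10 of 13 transcription factors were lower, beside the 17.3% of all probe sets. Ncr1 changed by -1.79 ± 0.17 (SE) and Gzma by -1.34 ± 0.15. Lower too were 5 of 10 neutrophil, 3 of 4 erythroid and 1 of 8 monocyte markers, and the granule gene Gzmk was higher (0.32 ± 0.11). When array spread was in the fit, 769 probe sets in place of 4074 were called lower (3.27%), and the counts were 9 natural killer cell markers, 4 cytotoxic granule genes, 7 T cell markers, 2 B cell markers, 7 transcription factors and no neutrophil or erythroid marker.

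In the MWCNT trend at 12 months, 9 of 10 B cell markers, 6 of 12 T cell markers, 3 of 13 transcription factors (Ets1, Ikzf3 and Foxo1), 2 of 9 cytotoxic granule genes (Nkg7 and Ccl5) and 0 of 14 natural killer cell markers were lower, against 5.07% of all probe sets. With the spread as a covariate these counts were 2, 3, 0, 0 and 0, against 0.319%. Differences between the lists were not tested.

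Within groups, some of the members also varied together from mouse to mouse. Deviations from the group mean were correlated over all mice for 21 pairs, with 2-sided permutation tests of 100000 resamples within groups. After adjustment 11 of 21 pairs had an adjusted p under 0.05 for r, all positive. For rho, Il12rb2 and Il18rap (adjusted p = 0.0531) and Tbx21 and Eomes (adjusted p = 0.0831) were no longer among them. The highest r was that of Il2rb and Il18rap (r = 0.61, rho = 0.56), followed by Il18r1 and Il18rap (r = 0.57, rho = 0.56) and Il2rb and Il18r1 (r = 0.55, rho = 0.52). For these 3 pairs the permutation p was 1e-05, the smallest the resamples can give, with an adjusted p of 5.25e-05 for r and 7e-05 for rho. Without the 2 mice farthest from the median r was 0.60, 0.54 and 0.56. Within array numbers 1 to 96 (96 mice) r was 0.52, 0.51 and 0.47, and within the later numbers (43 mice) 0.74, 0.67 and 0.77. Many other genes followed these members more closely. By r among 23520 other probe sets, Il18rap ranked 449th for Il2rb, and Il2rb 278th for Il18rap. Ranks of weaker pairs among the 11 depended on the direction. Tbx21 ranked 4776th for Il18r1 and 4238th for Il18rap, which ranked 1391st and 1116th for Tbx21. Il12rb2 ranked 5366th for Il18r1 and 5777th for Il18rap, which ranked 700th and 1489th for Il12rb2. Il2rb ranked 8th for Il12rb2 and 25th for Tbx21. How many pairs of other genes would pass was not tested.

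Il12rb2 was nearest to Il2rb (r = 0.45, rho = 0.34, permutation p = 2e-05, adjusted p = 8.4e-05, and r = 0.40 without the 2 farthest mice). The T-box factors were correlated with each other weakly (r = 0.23, adjusted p = 0.0267, rho = 0.19, adjusted p = 0.0831), at 0.34 within array numbers 1 to 96 but -0.34 within the later ones, so that the relation did not hold in both. Tbx21 followed Il2rb (r = 0.43, adjusted p = 5.25e-05, rho = 0.37, adjusted p = 0.000367). Eomes was correlated with none of the receptor chains (r = 0.06 to 0.12, adjusted p of 0.289 or more), and Ifng with no member (r = -0.15 to 0.18, adjusted p of 0.103 or more).

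Each member was also set against the mean of each marker list, 63 pairs in all. Il2rb followed the natural killer cell markers (r = 0.76), the cytotoxic granule genes (0.72), the monocyte markers (0.67) and the T cell markers (0.63), Il18r1 the T cell (0.63) and natural killer cell markers (0.63), and Il12rb2 the natural killer cell markers (0.48), all with an adjusted p of 3.15e-05. Il18rap also followed the neutrophil markers (0.50, adjusted p = 3.15e-05), where Il12rb2 did not (r = -0.11, adjusted p = 0.26). Eomes had an adjusted p under 0.05 with the erythroid list alone (r = 0.19, adjusted p = 0.0469, and rho = 0.16, adjusted p = 0.13). With the natural killer and T cell marker means removed by regression, the median r of the 21 pairs went from 0.23 to 0.07, and r of Il2rb and Il18rap was 0.28 and of Il18r1 and Il18rap 0.28. The array spread was itself correlated with Il2rb (r = -0.31, rho = -0.28, adjusted p = 0.0098), Il18rap (r = -0.29, adjusted p = 0.0108) and Il18r1 (r = -0.26, adjusted p = 0.0251), and with it removed the 3 highest pairs had r of 0.57, 0.54 and 0.51.

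**Figure D4:**
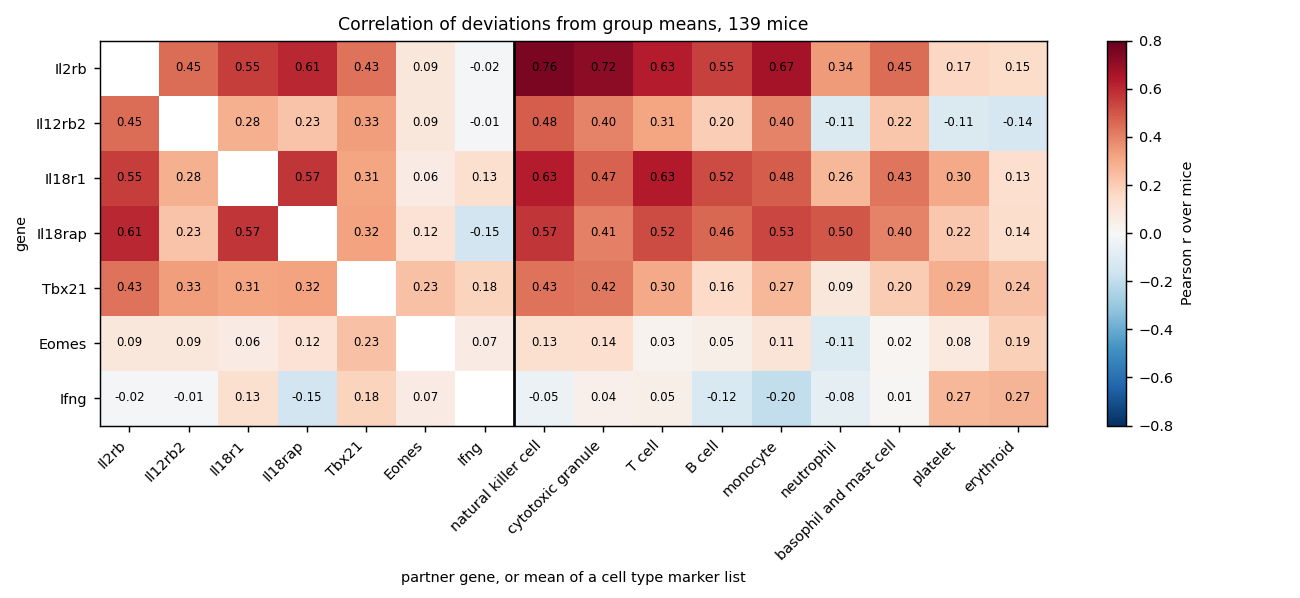
Pearson r, over all mice, of deviations from group means between the 7 genes (left of the line) and between each gene and the mean of a cell type marker list (right). Il2rb, Il18r1 and Il18rap form the pairs with the highest r, 0.55 to 0.61, while the rows of Eomes and Ifng are pale.

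The genes whose deviations were most like a member's, among all 23520 other probe sets, are given as a description. For Il2rb they were Selplg (r = 0.76), the ligand of P-selectin, Dock10 (0.76), Cyth4 (0.75), the small GTPase Rac2 (0.75) and Csf1r (0.75), a monocyte marker. For Il12rb2 they were Itga1 (r = 0.54), an integrin chain that binds collagen, the ATP-gated channel P2rx7 (0.52), Sytl2 (0.50), which acts in granule secretion, Tgfbrap1 (0.47) and Pkd1 (0.46). Il2rb ranked 8th for Il12rb2, the highest rank of any member for another. In the other direction Il12rb2 ranked 2278th for Il2rb.

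For Il18r1 the nearest were the phosphatase Ptpn22 (r = 0.68), Dock8 (0.67), Srcap (0.67), Dock10 (0.66) and Naa60 (0.66), and for Il18rap Lyst (0.73), which acts in granule traffic, Pik3cg (0.72), Dock8 (0.71), Ankle2 (0.71) and Stat3 (0.71). For Tbx21 they were Dock5 (r = 0.48), Ptpn1 (0.47), Itgal (0.47) and Itgb2 (0.47), the chains of the integrin LFA-1, and Ywhag (0.47). Eomes had its nearest genes at lower r, with Ehd2 (0.37), Kdm4b (0.36), Tarbp2 (0.35), Klf4 (0.34) and Zfp326 (0.34). No member was among the 5 nearest genes of another.

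For 5 mouse numbers 2 arrays were averaged, and whether these are repeat arrays of 1 mouse is not certain. The 2 arrays of a number correlated at 0.897 to 0.936 over all probe sets, against a median correlation of 0.833 to 0.917 with the other arrays of their group, and in DM at 12 months the pair correlated at 0.913 against that median of 0.917. They differed by up to 0.67 in Il2rb and 0.34 in Il12rb2, less than the residual SD between mice. The largest differences were 0.88 in Il18r1, 1.20 in Il18rap, 1.20 in Tbx21, 1.47 in Eomes and 0.58 in Ifng, all more than that SD. That SD is one of single mice and not of differences between 2 arrays. It therefore cannot settle whether the arrays are repeats.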

How the data were processed

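The authors prepared labelled cDNA from whole-blood RNA and hybridized it to Affymetrix Mouse Gene ST 2.1 arrays. What the authors deposited is the log2 signal after RMA. Among tools, the submitters' notes list oligo, RMA and limma, with no version. Such averaging shrinks differences of dim genes. The table holds 41345 probe sets, and all arrays were used. The number of arrays limits the precision.

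Groups came from the labels. In 5 cases 2 arrays of a group carried 1 mouse number and were averaged. Nothing names a plate or batch, so array numbers 1 to 96 and from 97 upward stood in for one. The 23521 probe sets annotated to 1 gene were fitted together over 18 groups with limma 3.58.1 in R 4.3.3 (lmFit, eBayes), p-values were adjusted by Benjamini-Hochberg over all of them within each comparison, and a probe set was called at an adjusted p under 0.10. A log2 change is given with its standard error and a group mean with its SD. The methods' threshold of 1.5-fold was counted beside it. Planned comparisons numbered 28. The comparison of DM mice at 6 months and 1 month was simulated on 23521 probe sets. There 78% of changes of 1 and 100% of changes of 2 on the log2 scale were recovered, and 16 of 194 calls were false. The simulated noise was drawn separately for each probe set. Variation shared across an array and outlying mice, which the real data hold, are thus not reflected in these shares. The members and gene lists were chosen with earlier results of these data known. Named genes are the 7 members, the 5 nearest genes of each member above background, and at most 4 called genes of a list by smallest p. The nearest genes leave out olfactory receptors, small RNA genes and genes that are only predicted. Alternatives covered normalization, arrays of low correlation, array spread, array number, array weights, repeated mouse numbers, dim probe sets, prior spread, the methods' analysis of variance, dose scale and each mouse left out in turn. Each gene had 1 probe set, so that the planned mean over several could not differ.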

Additional observations from a re-analysis of the deposited data

Results flagged for a closer look

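Over all 7 genes in all 18 groups, 11 sets had a highest or lowest mouse that stood apart from the rest by Dixon's criterion, which chance alone meets in about 1 of 20 groups. For Il2rb it was the lowest DM mouse of 6 months, at 2.65. For Il12rb2 it was the highest crocidolite mouse of 1 month, at 4.66, and the highest 80 µg mouse of 12 months, at 3.75. For Il18r1 it was the highest 40 µg mouse of 12 months, at 4.22. For Il18rap it was the highest 1 µg mouse of 1 month, at 4.92, and the lowest 80 µg mouse of 1 month, at 2.06. For Tbx21 it was the lowest 1 µg mouse of 6 months, at 1.22, and the highest crocidolite mouse of 6 months, at 3.48. For Eomes it was the lowest 40 µg mouse of 1 month, at 1.77. For Ifng it was the highest 40 µg mouse of 6 months, at 1.93, and the highest 80 µg mouse of 12 months, at 2.38.

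For 2 exposures every mouse lay on one side of the DM mean at 1 month and on the other at 6 months. With 10 µg MWCNT, Il2rb was at -1.23 against DM at 1 month and at 0.37 at 6 months, a difference of 1.59. With 40 µg, Eomes was at -0.39 and 0.40, a difference of 0.78. Neither difference between months was tested for its own exposure.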

How the results depend on the processing

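Of the DM changes between 6 months and 1 month, 6 genes were called lower as reported, 2 after a second quantile normalization, and 1 to 6 with each mouse left out in turn. Between 12 months and 1 month the count was 3, and 1 to 3 with a mouse left out. In that comparison Il18r1 lost its call with only the compared groups fitted (adjusted p = 0.128) and after the second quantile normalization (adjusted p = 0.103), and Il18rap gained one with array weights (adjusted p = 0.0649). In exposed groups 5 were called at 12 months against 1 month, 5 to 6 with a mouse left out and 2 when array spread was a covariate. At 12 months against 6 months the count of 2 became 0 with that covariate or without arrays of low correlation, 1 with array weights, with the first array of each repeated mouse, with only the compared groups fitted, or after the second quantile normalization, and 1 to 2 with a mouse left out. In the 15 comparisons with DM, 0 genes were called, 2 with array weights and 0 to 2 with a mouse left out. Over all 18 groups 4 were called, and 3 to 5 with a mouse left out. Left out in turn were the mice of 12 months and the DM mice of 1 and 6 months. The causes were not tested. The median r of 21 pairs moved from 0.228 to 0.0726 with the natural killer and T cell marker means removed, an alternative added after the values were seen, as were the exposed-group months and the list counts under other settings.

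None of the 518 values of single genes under an alternative changed direction while called. Of them 19 lost their call and 6 gained one. No paired analysis was possible because the replicate numbers only follow the order of the samples and pair no mice. Over all probe sets, lower calls in DM mice at 6 months against 1 month numbered 814, 180 after the second quantile normalization, 479 without arrays of low correlation, 1304 with only the compared groups fitted, 1450 without dim probe sets, 1686 with array weights and 1736 with the spread covariate. Those of exposed groups at 12 months against 1 month numbered 4074, 769 with the spread covariate, 1704 after quantile normalization and 2300 without arrays of low correlation. Calls in the 15 comparisons with DM numbered 924, and were 3996 with array weights, 2347 with each array as a mouse and 519 without arrays of low correlation. The methods' analysis of variance called none of the 7 genes in them. Signal over background limits Ifng, which was above background on 25 arrays.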
